A study of Arabidopsis with 12 samples.

Results

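The genotype by medium interaction asks, for each gene, whether the response to water deficit differed between tori 35-7 and Col-0 seedlings of Arabidopsis. It was computed as the water-deficit minus control difference in tori 35-7, minus the same difference in Col-0. All 12 of 12 arrays of the series and all 16548 genes that could be named entered it. A negative interaction means that tori 35-7 responded less upward, or more downward, than Col-0, and a positive one the opposite.

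Whole seedlings were moved to a new medium at an age of 5 days, kept there for 72 h and sampled when 8 days old. The groups were tori 35-7 under water deficit (medium with 2% agar), tori 35-7 on control medium (0.8% agar), Col-0 under water deficit and Col-0 on control medium, with 3 arrays each. The labels give 1 growth, transfer and extraction protocol for all groups. The labels name tori 35-7 as a genotype without describing its allele, transgene or number of lines. Col-0 is the standard laboratory accession of Arabidopsis.

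The series title names TOR, a protein kinase that couples nutrients, energy and hormones to growth in plants and other eukaryotes. A firmer agar holds its water more tightly, which limits what roots can take up. An interaction differs from a response or a genotype difference: a gene that rises equally in both genotypes has none, and neither has a gene that differs between genotypes by the same amount on both media.

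The arrays had medians between 3.06 and 3.19 on the log2 scale, so their centres were close but not equal. Their spreads were not alike: the interquartile range over probe sets was 2.56 on Col-0 water-deficit array 1 and 2.68 on tori 35-7 control array 1, against 2.91 to 3.08 on the other arrays. These 2 arrays enter the interaction with the same sign, so results are given with and without them where they matter. The 6 measured members of a list of 41 nuclear photosynthesis genes had a median level of 7.77, high on this scale, in whole green seedlings. Whether replicates were separate plant cultures is not in the labels. The p-values therefore measure the spread between these arrays alone, which may be technical. In whole seedlings, fewer cells of a type and less RNA per cell cannot be told apart.

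A single gene, AT3G10040, passed the threshold for the interaction (limma, Benjamini-Hochberg adjusted p below 0.05), which is 0.00604% of the genes tested. With it, 211 genes, 1.28% of those tested, had an unadjusted p below 0.01, where 165 would lie if p-values were spread evenly. These are called candidates here: they rank genes and are not calls, and the highest adjusted p among them was 0.768. Their interactions had sizes of 0.489 to 2.87 on the log2 scale, with a median of 0.775, and 42 were at least 1. Just inside the threshold lay AT1G73210, with an interaction of 0.68 and an unadjusted limma p of 0.00999. Just outside lay AT3G26670, with 0.96 and 0.0101. Candidates were positive in 130 genes (0.786%) and negative in 81 (0.489%). At an unadjusted p below 0.05 there were 1006 genes (6.08%), against 827.4 for an even spread, and below 0.001 there were 22 (0.133%), against 16.5.

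AT3G10040 encodes HRA1, a trihelix transcription factor that low oxygen induces and that restrains the low-oxygen response. Its log2 level was 3.31, 3.10 and 3.53 in tori 35-7 under water deficit, 4.59, 5.53 and 5.56 in tori 35-7 on control medium, 2.90, 2.96 and 2.96 in Col-0 under water deficit and 2.20, 2.57 and 2.70 in Col-0 on control medium. The tori 35-7 control arrays were all above every other array, and their array 1 was the lowest of the 3. AT3G10040 fell by 1.91 ± 0.22 (SE) under water deficit in tori 35-7, a 3.77-fold difference (limma adjusted p = 0.000573). In Col-0 the difference was 0.45 ± 0.22 (adjusted p = 0.43). The interaction was -2.36 ± 0.32 (adjusted p = 0.0436). Tori 35-7 exceeded Col-0 by 2.74 ± 0.22 on control medium, a 6.66-fold difference, and by 0.38 ± 0.22 under water deficit (adjusted p = 0.526). The call was kept in 1 of 12 fits that each left out 1 array (without tori 35-7 control array 1, adjusted p = 0.000334) and lost in the other 11, with adjusted p between 0.0823 and 0.262. It was also lost when arrays were centred on their median (adjusted p = 0.0575 over all probe sets and 0.121 over the tested genes). Fitting all probe sets lost it too. The call was kept without the 2 arrays of narrowest spread (limma adjusted p = 0.000292) and with array weights (0.000636). The replicate block (0.0123) and quantile normalization (0.0156 over all probe sets, 0.0188 over the tested genes) kept it. So did leaving out low levels (0.0344), changing the priors (0.0353) and averaging probe sets (0.0438). The size of the interaction moved little, between -2.68 and -2.19 over the 12 fits.

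**Figure D1:**
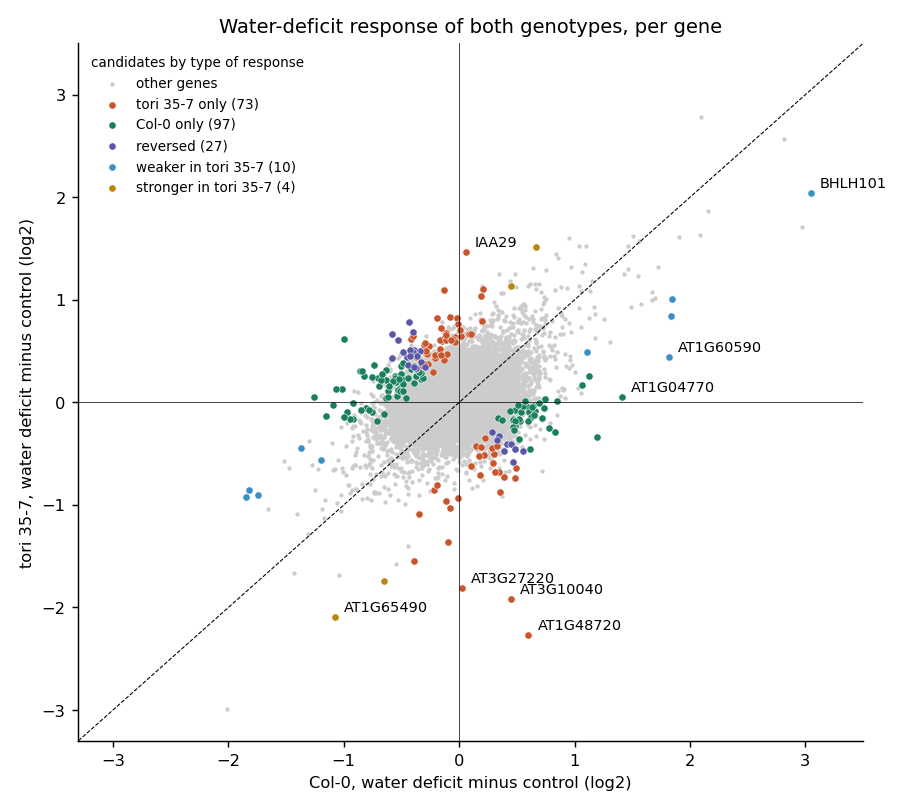
Water-deficit response of each of the 16548 genes in Col-0 (horizontal axis, log2) and in tori 35-7 (vertical axis, log2), with the 211 candidates coloured by type of response. Points on the dashed line have no interaction, and AT3G10040 and AT3G27220 lie furthest below it among the genes that fell in tori 35-7 alone, apart from AT1G48720, whose spread is wide.

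Candidates were sorted by whether each genotype's response had an unadjusted p below 0.05, as a description with no test. Of the 211, 73 responded in tori 35-7 only, 97 in Col-0 only, 27 in opposite directions, 10 in both but more weakly in tori 35-7 and 4 in both but more strongly in tori 35-7. None responded in neither. Over all genes, 9.55% responded at that p in tori 35-7 and 12.9% in Col-0, and genotypes differed at that p in 12.8% under water deficit and 9.97% on control medium. The interaction is the difference of the 2 responses, and equally of the 2 genotype differences. Nearly every candidate must therefore pass in either or both of them. An excess over these shares is built in, and nothing is read from it. Sorted instead by the difference between genotypes, 119 had it under water deficit only, 67 on control medium only, so that it was lost under water deficit, and 19 in opposite directions on the 2 media. A further 2 had it on both media but smaller under water deficit, and 4 on both but larger. Of the 28 candidates with a negative interaction that responded in tori 35-7 only, 19 differed between genotypes on control medium only, against 31.8% of all candidates. Of the 60 with a positive interaction that responded in Col-0 only, 37 differed under water deficit only, near the 56.4% of all candidates. So did 23 of the 37 negative ones in Col-0 only and 31 of the 45 positive ones in tori 35-7 only. Both sortings use the same group means, so they are not independent, and nothing is read from these shares.

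**Figure D2:**
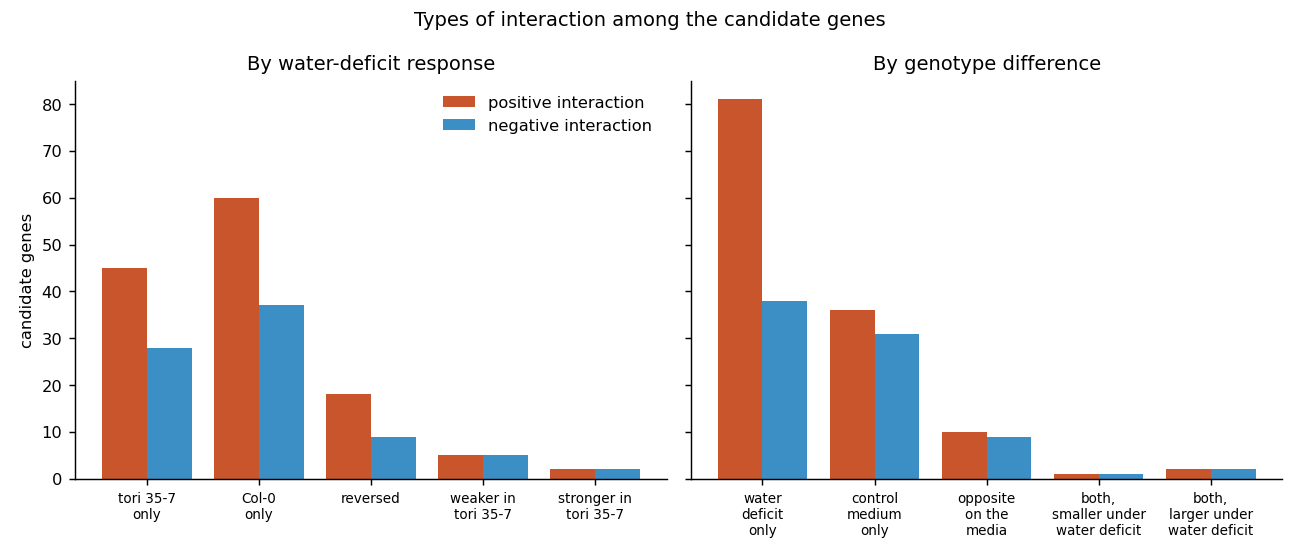
Number of candidate genes of each type, by response to water deficit (left) and by difference between genotypes (right), with positive and negative interactions as separate bars. The largest groups are responses in Col-0 only (97 genes) and genotype differences under water deficit only (119 genes).

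The genes that responded in tori 35-7 only and downward were led by AT3G10040 and by AT3G27220, a kelch-repeat protein gene of the core low-oxygen response. AT3G27220 stood at 4.27, 4.47 and 3.99 in tori 35-7 under water deficit, 5.26, 6.33 and 6.56 in tori 35-7 on control medium, 3.83, 4.0 and 3.69 in Col-0 under water deficit and 3.65, 3.77 and 4.03 in Col-0 on control medium. The tori 35-7 control arrays stood above every other array, and their array 1 was again the lowest of the 3. It fell by 1.81 under water deficit in tori 35-7 (limma adjusted p = 0.00325) and differed by 0.02 in Col-0. Its interaction of -1.83 ± 0.37 missed the threshold (adjusted p = 0.326), and without the 2 arrays of narrowest spread it was -2.23 (adjusted p = 0.00266).

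EXO (AT4G08950), the brassinosteroid-responsive gene EXORDIUM that acts in cell expansion, had the same shape. Its levels were 4.36, 4.45 and 3.82 in tori 35-7 under water deficit, 5.40, 5.68 and 5.62 in tori 35-7 on control medium, 4.14, 4.54 and 3.95 in Col-0 under water deficit and 4.30, 4.2 and 4.43 in Col-0 on control medium. The tori 35-7 control arrays were the 3 highest and the other groups overlapped. EXO fell by 1.36 in tori 35-7 under water deficit (limma adjusted p = 0.00209), and its interaction was -1.26 ± 0.26 (adjusted p = 0.326). Likewise AT3G21080 had an interaction of -0.86 ± 0.21 and AT1G80130 one of -0.92 ± 0.23, both with a fall in tori 35-7 (adjusted p = 0.00446 and 0.0117). The largest interaction among the candidates, chosen here after its value was seen, was that of AT1G48720 at -2.87 ± 0.74 (adjusted p = 0.744). Its levels spread widely, with 2.22, 2.11 and 3.70 in tori 35-7 under water deficit and 6.15, 4.02 and 4.68 in tori 35-7 on control medium.

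IAA29 (AT4G32280), an Aux/IAA repressor of auxin signalling that shade and warmth induce, led the upward responses in tori 35-7 only. Its levels were 3.95, 4.75 and 4.80 in tori 35-7 under water deficit, 3.04, 3.24 and 2.83 in tori 35-7 on control medium, 2.63, 2.55 and 2.40 in Col-0 under water deficit and 2.25, 2.56 and 2.61 in Col-0 on control medium. Every tori 35-7 water-deficit array was above every other array, and every tori 35-7 control array above every Col-0 array. IAA29 rose by 1.46 in tori 35-7 (limma adjusted p = 0.00244) and differed by 0.06 in Col-0, with an interaction of 1.41 ± 0.29 (adjusted p = 0.326). AT4G18205, of the purine permease family, rose by 0.72 in tori 35-7 (adjusted p = 0.0192) with an interaction of 0.88 ± 0.20. The tetraspanin gene TET5 rose by 0.83 (adjusted p = 0.0302) with an interaction of 0.91 ± 0.24.

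Responses in Col-0 only were the most frequent type. AT1G04770, a sulfur-deficiency-induced gene known as SDI2, stood at 5.65, 5.80 and 5.31 in tori 35-7 under water deficit, 5.46, 5.77 and 5.35 in tori 35-7 on control medium, 5.92, 6.0 and 6.14 in Col-0 under water deficit and 4.28, 4.64 and 4.91 in Col-0 on control medium. Only the Col-0 control arrays were low, and both tori 35-7 groups overlapped. It rose by 1.41 in Col-0 (limma adjusted p = 0.000987) and differed by 0.06 in tori 35-7, with an interaction of -1.36 ± 0.25 (adjusted p = 0.326). CP1 (AT4G36880), a papain-like cysteine protease gene, had 3.54, 3.52 and 3.53 in tori 35-7 under water deficit, 3.25, 3.37 and 3.20 in tori 35-7 on control medium, 4.61, 4.85 and 4.50 in Col-0 under water deficit and 3.49, 3.64 and 3.47 in Col-0 on control medium. The Col-0 water-deficit arrays stood about 1 unit above all others. CP1 rose by 1.13 in Col-0 (adjusted p = 0.000336), and its interaction was -0.87 ± 0.18.

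Downward responses in Col-0 only included AT1G22570, of the nitrate and peptide transporter family. Its levels were 6.46, 6.51 and 6.46 in tori 35-7 under water deficit, 6.10, 6.37 and 6.17 in tori 35-7 on control medium, 5.04, 4.59 and 4.92 in Col-0 under water deficit and 5.69, 5.52 and 5.83 in Col-0 on control medium. No array of tori 35-7 overlapped Col-0 on either medium, and the gap was wider under water deficit. AT1G22570 fell by 0.83 in Col-0 (limma adjusted p = 0.011) with an interaction of 1.09 ± 0.20 (adjusted p = 0.326). OTP70 (AT4G25270), a pentatricopeptide repeat protein gene for splicing of a plastid transcript, had 3.33, 2.97 and 3.29 in tori 35-7 under water deficit, 3.13, 2.99 and 3.07 in tori 35-7 on control medium, 3.78, 3.20 and 3.32 in Col-0 under water deficit and 4.51, 4.75 and 4.24 in Col-0 on control medium. The Col-0 control arrays were the 3 highest. OTP70 was lower in tori 35-7 than in Col-0 by 1.44 on control medium (difference -1.44, adjusted p = 0.00247) and differed by -0.24 under water deficit, with an interaction of 1.2 ± 0.24.

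**Figure D3:**
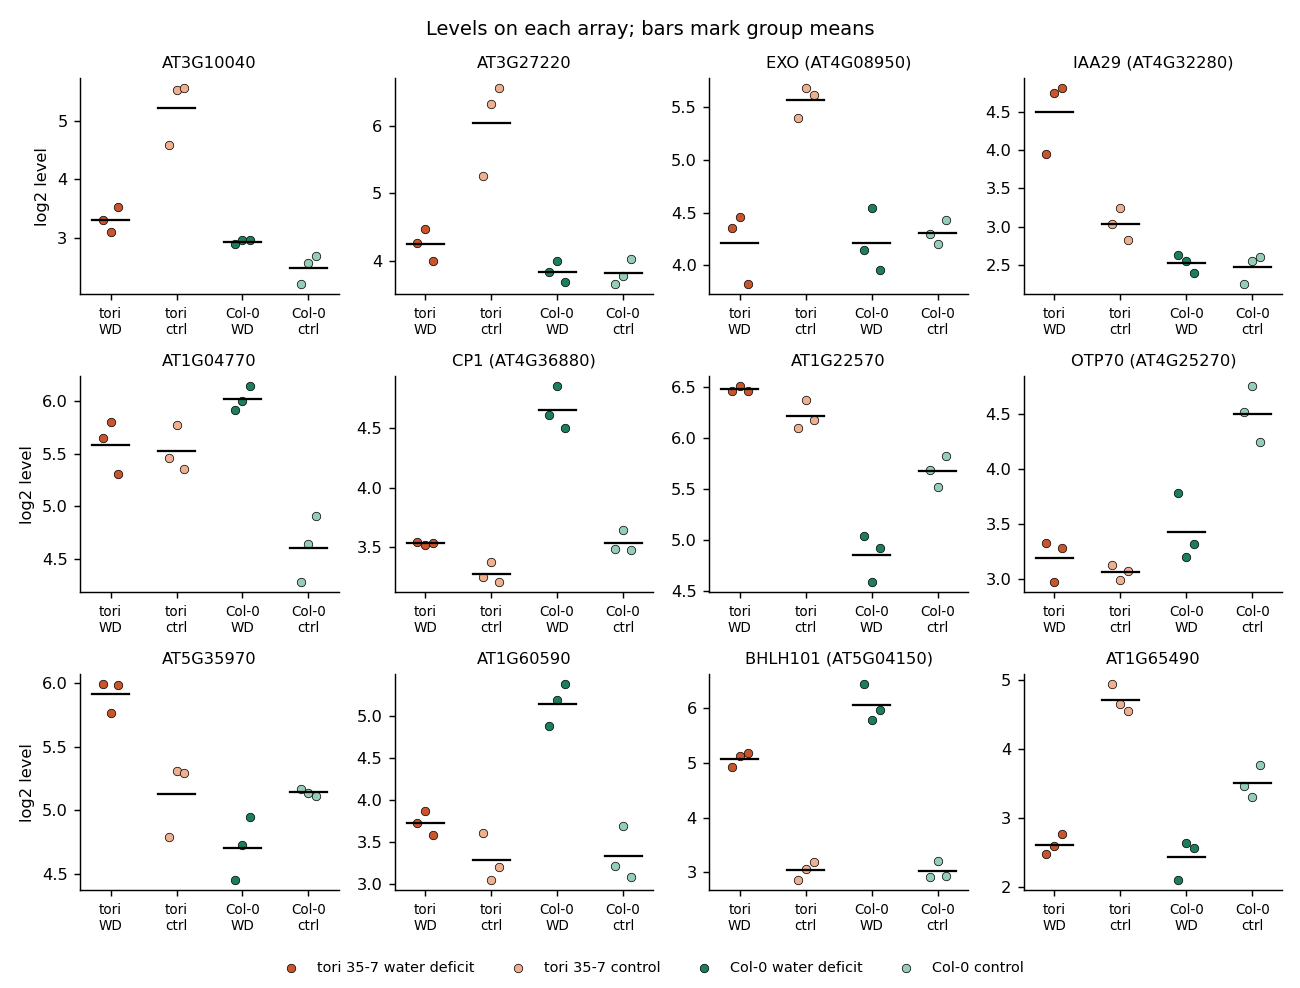
Log2 level of 12 genes on each array (points) with the group mean (bar), in the order tori 35-7 water deficit, tori 35-7 control, Col-0 water deficit and Col-0 control. In AT3G10040, AT3G27220 and EXO the tori 35-7 control arrays stand above the rest, in CP1 and AT1G60590 the Col-0 water-deficit arrays do, and in BHLH101 both water-deficit groups are high.

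Reversed candidates had interactions with a median size of 0.877, against 0.744 for responses in Col-0 only and 0.765 in tori 35-7 only. The median was 0.924 for weaker and 0.93 for stronger responses in tori 35-7. In a reversed gene the sizes of 2 responses that each passed add up. A larger size than in the types with 1 response is therefore built in, and nothing is read from it. AT5G35970 was the first of the reversed candidates, with 5.99, 5.76 and 5.99 in tori 35-7 under water deficit, 4.79, 5.31 and 5.29 in tori 35-7 on control medium, 4.45, 4.72 and 4.94 in Col-0 under water deficit and 5.17, 5.14 and 5.11 in Col-0 on control medium. The water-deficit arrays of the 2 genotypes lay on opposite sides of the control arrays of Col-0. It rose by 0.78 in tori 35-7 (limma adjusted p = 0.0324) and differed by -0.43 in Col-0 (adjusted p = 0.257), and the interaction was 1.22 ± 0.23. AT5G34930, an arogenate dehydrogenase gene of tyrosine synthesis, differed by 0.44 in tori 35-7 and -0.45 in Col-0. With adjusted p below 0.05 in both genotypes required, 0 candidates were reversed.

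Weaker responses in tori 35-7 included AT1G60590, of the pectin lyase-like family. It had 3.73, 3.86 and 3.58 in tori 35-7 under water deficit, 3.6, 3.04 and 3.20 in tori 35-7 on control medium, 4.87, 5.18 and 5.37 in Col-0 under water deficit and 3.21, 3.69 and 3.08 in Col-0 on control medium. The Col-0 water-deficit arrays stood apart from all others. AT1G60590 rose by 1.82 in Col-0 (limma adjusted p = 0.000198) and differed by 0.44 in tori 35-7 (adjusted p = 0.463), with an interaction of -1.38 ± 0.27.

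Of the 4 candidates with a stronger response in tori 35-7, AT1G71140, a transporter gene of the MATE family, rose by 1.51 in tori 35-7 (limma adjusted p = 0.0002) and by 0.67 in Col-0 (adjusted p = 0.0497). Its interaction was 0.85 ± 0.22. AT1G65490 fell by 2.09 in tori 35-7 and by 1.08 in Col-0, and its interaction was -1.01 ± 0.25. Its level was higher in tori 35-7 than in Col-0 by 1.2 on control medium (adjusted p = 0.00899) and by 0.18 under water deficit.

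The interaction was negative in every measured gene of the iron-deficiency list. Plants short of iron induce a small cascade of bHLH regulators and signal peptides, and 11 of 30 listed genes were measured. None passed the adjusted threshold for the interaction. Under water deficit 5 of the 11 rose in tori 35-7 and 8 in Col-0, with none falling, against 0.822% and 0.671% of all genes that rose. The median response was 0.84 in tori 35-7 and 1.84 in Col-0. The interaction was negative in 11 of 11, with a median of -0.30 against 0.00 over all genes, and 4 had an unadjusted p below 0.05 (2.44% of all genes were negative at that p). Without the 2 arrays the median was -0.59, with 10 of 11 negative.

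BHLH101 (AT5G04150), a bHLH regulator of iron uptake, stood at 4.92, 5.12 and 5.18 in tori 35-7 under water deficit, 2.85, 3.06 and 3.20 in tori 35-7 on control medium, 6.44, 5.79 and 5.96 in Col-0 under water deficit and 2.91, 3.20 and 2.94 in Col-0 on control medium. The control groups overlapped, both water-deficit groups were above them, and Col-0 was the higher of these. BHLH101 rose by 2.04 in tori 35-7 and by 3.05 in Col-0, and the interaction was -1.01 ± 0.24 (limma adjusted p = 0.707). AT1G47400, which encodes the iron-deficiency peptide IMA1, rose by 0.84 in tori 35-7 and 1.84 in Col-0, with an interaction of -1.0 ± 0.24. The other 2 at an unadjusted p below 0.05 were AT5G05250 (-0.45) and PYE (-0.55), and PYE was named here after its value was seen.

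The low-oxygen list held AT3G10040 and AT3G27220. Plants induce this group when oxygen is short, through ethylene response factors that are degraded when oxygen is present. Of 24 measured members of 52, 1 passed the adjusted threshold, and 4 were negative and 0 positive at an unadjusted p below 0.05, where 2.44% of all genes were negative and 3.64% positive. The other 2 of the 4 were AT4G24110 (-0.61 ± 0.19) and AT1G72940 (-0.59, named after its value was seen). The median interaction was -0.15, and -0.04 without the 2 arrays. Under water deficit 2 of the 24 rose and 4 fell in tori 35-7, against 0.822% and 0.338% of all genes, and 0 rose and 1 fell in Col-0, against 0.671% and 0.556%.

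CC-type glutaredoxins, small redox proteins that several nutrient signals induce, had 5 of 20 measured members positive and 0 negative at an unadjusted p below 0.05 (3.64% of all genes were positive at that p). None passed the adjusted threshold. Under water deficit 1 fell in tori 35-7 and 6 in Col-0, against 0.338% and 0.556% of all genes. AT5G18600 had 5.01, 5.36 and 4.98 in tori 35-7 under water deficit, 5.13, 6.02 and 5.52 in tori 35-7 on control medium, 4.45, 4.72 and 4.59 in Col-0 under water deficit and 6.2, 5.96 and 5.70 in Col-0 on control medium. The tori 35-7 groups overlapped, the Col-0 groups did not, and under water deficit every tori 35-7 array was above every Col-0 array. The interaction was 0.93 ± 0.29. The 5 members are AT5G18600, AT4G15670, AT4G15680, AT4G15690 and AT4G15700, close relatives whose probe sets may not tell them apart. The median over the 20 was -0.02. Without the 2 arrays of narrowest spread, 4 were positive and 2 negative at that p, and the median was -0.06. Over all 16548 genes, 615 were positive and 564 negative at that p in that fit.

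**Figure D4:**
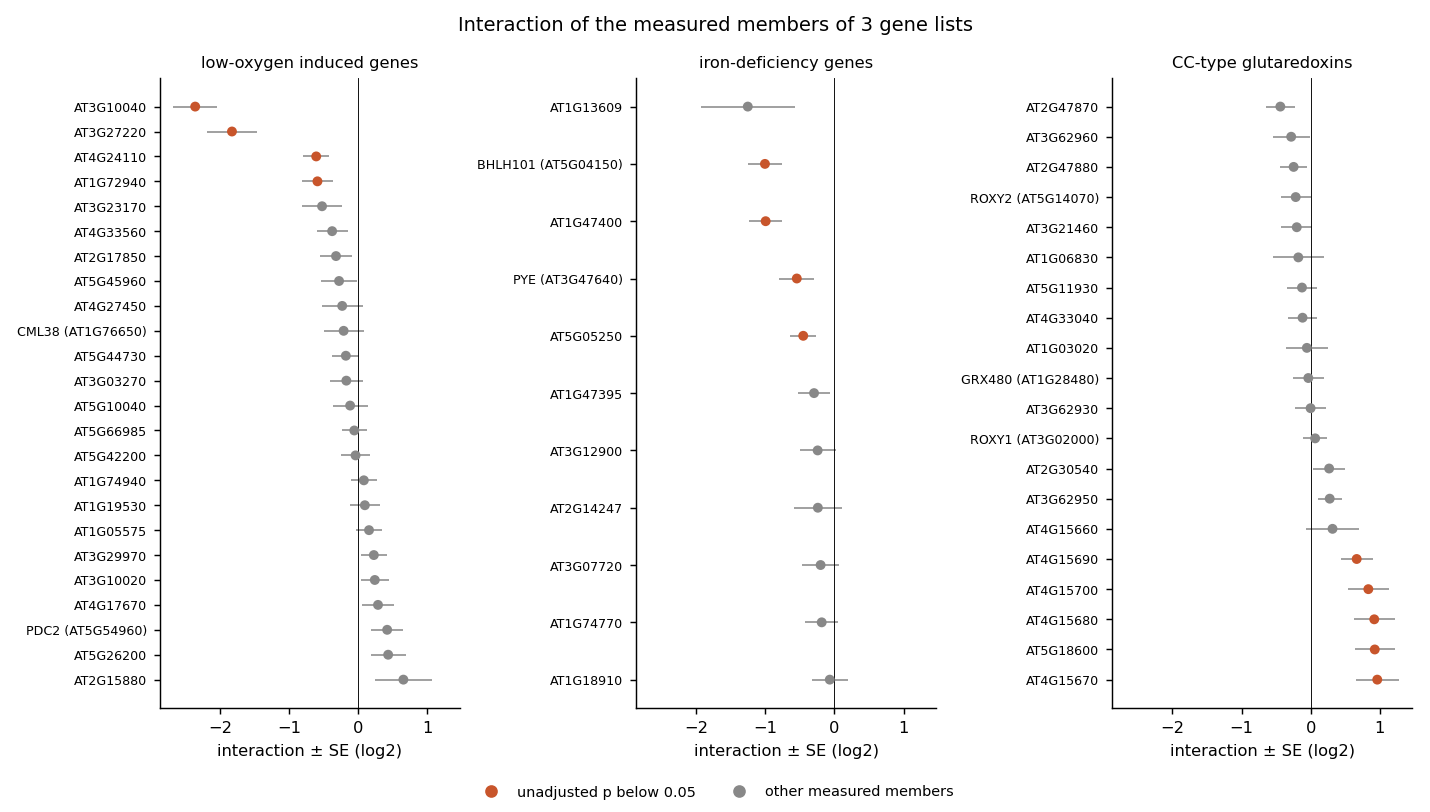
Interaction with its standard error (horizontal axis, log2) for each measured member of 3 gene lists: low-oxygen induced, iron-deficiency and CC-type glutaredoxin genes, with members at an unadjusted p below 0.05 in orange. All 11 iron-deficiency genes lie below 0, AT3G10040 and AT3G27220 lie furthest from 0 in the low-oxygen list, and 5 glutaredoxins in orange lie above 0.

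Of the 28 lists, 4 had no measured member and 6 had 1 or 2, so nothing or little was tested in those. Among the lists with measured members, the low-oxygen list alone had a member past the adjusted threshold. Dehydration genes had 6 of 22 measured, 4 with a negative interaction and 2 with a positive one. At an unadjusted p below 0.05, 2 were negative and 0 positive, against 2.44% and 3.64% of all genes. Among the 6 was KIN2, a cold and dehydration gene, which rose by 1.01 in tori 35-7 and by 1.70 in Col-0 with an interaction of -0.68 ± 0.24. The interaction was -0.60 in COR15B and -0.30 in KIN1. The anthocyanin gene DFR rose by 1.07 in Col-0 (limma adjusted p = 0.0163) and differed by 0.16 in tori 35-7, with an interaction of -0.90 ± 0.28. Of 17 genes of the TOR complex and its signalling, 5 were measured and 0 had an unadjusted p below 0.05, against 6.08% of all genes, a share at which 0 of 5 is no result. Without the 2 arrays 1 of the 5 was positive at that p, against 615 of all 16548 genes. It was RAPTOR1, with an interaction of 0.48 ± 0.21 (limma adjusted p = 0.681). The 12 measured nucleolar ribosome assembly genes had a median of 0.22, and -0.06 without the 2 arrays. The 8 measured reference genes had a median of 0.25, positive in 8 of 8. Without the 2 arrays the median was 0.20, with 6 positive and 2 negative, and with quantile normalization it was 0.14.

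The interaction changed with the level of expression. Its median over genes was -0.07, -0.07, 0.06 and 0.14 over 4 equal classes of level, lowest to highest, on all arrays, and 0.05, 0.04, -0.02 and -0.02 without the 2 arrays of narrowest spread. In the highest class, 62 candidates were positive and 11 negative on all arrays, and 32 positive and 61 negative without the 2 arrays. The split of candidates by sign therefore turned over: 130 positive and 81 negative on all arrays, and 138 positive and 174 negative without the 2 arrays. Of the 312 candidates found without them, 107 were shared, which is 50.7% of the 211 and 34.3% of the 312. Of those 107, 90 kept their type by response and 87 their type by genotype difference.

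**Figure D5:**
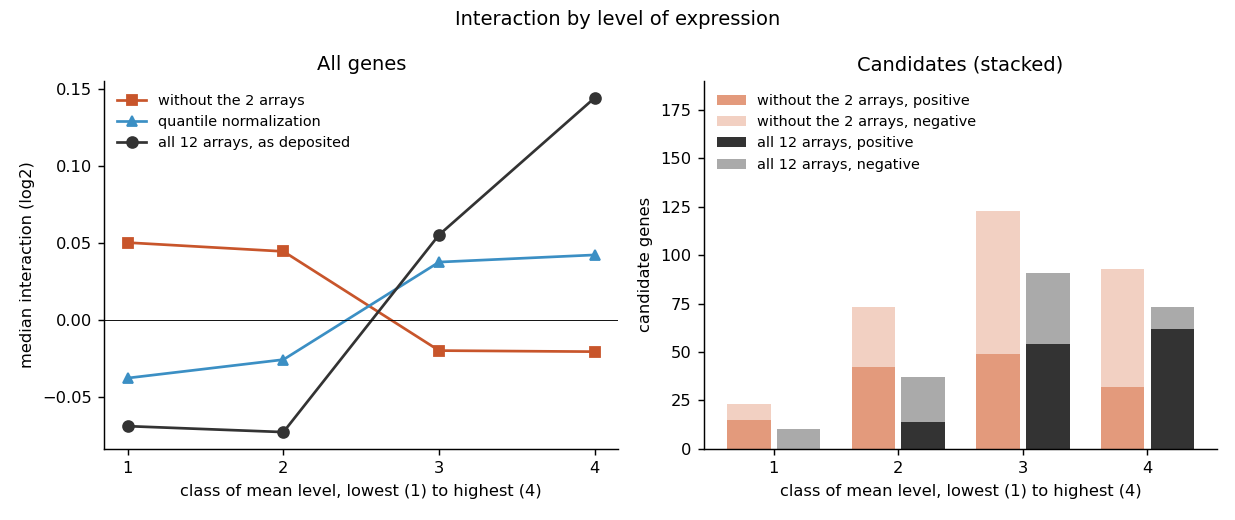
Median interaction over all genes (left, log2) and number of candidates (right, stacked by sign) in each of 4 equal classes of mean level, with all 12 arrays and without the 2 arrays of narrowest spread; the left panel also has quantile normalization. On all arrays the median runs between -0.07 and 0.14, and without the 2 arrays between -0.02 and 0.05.

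Candidates that held in all 12 single-array omissions numbered 59, of which 35 were positive and 24 negative, and 55 of them also held without the 2 arrays. Of the genes described above, AT5G18600 and DFR were candidates in 5 of the 12 omissions, AT4G24110 in 7, AT4G15680 in 6 and AT4G15670 in 4. KIN2, which was not a candidate on all arrays, was one in 4. AT3G10040, AT3G27220, EXO, IAA29, AT1G04770, CP1 and BHLH101 were among those that held in all 12.

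Genes called in a comparison for water deficit or for genotype had smaller median differences in the matching comparison. They were chosen and measured on the same arrays, and some were called in both comparisons. Choosing genes by a large difference in 1 comparison makes a smaller median in the other likely. Nothing is therefore read from the smaller medians. The 92 genes that fell in Col-0 under water deficit had median differences of -0.52 in tori 35-7 and -0.90 in Col-0, and 42 of them had a positive interaction at an unadjusted p below 0.05 (3.64% of all genes). The Col-0 difference that chose these genes is subtracted in the interaction, so an excess of positive values is built in and nothing is read from it. For the 136 that rose in tori 35-7, medians were 0.87 in tori 35-7 and 0.59 in Col-0. On control medium 45 genes (0.272%) were higher in tori 35-7 than in Col-0, by a median of 0.95. Under water deficit their median difference was 0.53, which is not read as a loss of the genotype difference. Of these 45, 10 were also called higher under water deficit, where 82 of all 16548 genes were called higher in tori 35-7. No gene was called in opposite directions in 2 matching comparisons.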

How the data were processed

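Total RNA (100 ng) from whole seedlings was hybridised to Affymetrix Arabidopsis arrays. The deposited table gives values of 38408 probe sets, taken as log2 levels (1.13 to 13.2) because the file names no scale. Per the submitters' processing notes they come from Transcriptome Analysis Console 4.0.1. For the background correction and the normalization, the method is not given in the sources used here. Of the probe sets, 16722 name 1 gene, 759 several (left out) and 20927 none. The brightest probe set stood for each of 16548 genes, 16505 of them named through RefSeq. A group-means model was fitted with limma 3.58.1 in R 4.3.3, with Benjamini-Hochberg adjustment over all genes, two-sided. The number of arrays limits the precision (median standard error of the interaction 0.229).

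Genes were named by rule: those past the adjusted threshold, and, by smallest interaction p, up to 5 per type (by response, or by genotype difference on 1 medium only) and direction, 5 per direction among genes called for water deficit or for genotype on control medium, and 3 per list. Members and lists were chosen with earlier results of these data known. Same-numbered arrays were not taken as pairs: deviations of 18 such pairs correlated between -0.0586 and 0.403, with 3 over 0.1. These 3 (0.403, 0.258 and 0.177) were all between Col-0 water deficit and tori 35-7 control, which enter the interaction with the same sign. Arrays of unlike number in these groups correlated at 0.195 and 0.15 where neither was array 1. Where either was array 1, they correlated between -0.326 and -0.234. On simulated data with 16548 genes, interactions of 2-fold and of 4-fold size were added to 100 genes each. The fit called 63% of the 2-fold and 100% of the 4-fold interactions, with 6 false calls. The simulated noise was independent and equal over arrays, without the narrower spreads and correlated deviations seen here, so these rates do not carry over to these data. Alternatives comprised 2 normalizations, filters, priors, weights, the replicate block, probe-set choices and omitted arrays. Both normalizations were first run over the tested genes and then over all probe sets, the reading used as planned, after the first values were seen, and both are given.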

Additional observations from a re-analysis of the deposited data

Results flagged for a closer look

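AT3G10040 was singled out because its response to water deficit differed between tori 35-7 and Col-0 by a test of the difference itself. The interaction was -2.36 on the log2 scale (limma adjusted p = 0.0436), from a fall of 1.91 in tori 35-7 and a difference of 0.45 in Col-0. The threshold was met in 1 of the 12 fits with an array left out. The probe sets without a gene name, 20927 in number, held 0 calls and 274 candidates (1.31%), 149 positive and 125 negative, and 1471 at an unadjusted p below 0.05 (limma).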

How the results depend on the processing

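None of the 211 candidates turned its sign under the alternatives fitted by gene. They were chosen for large interactions on arrays that every alternative reuses, so a turn was unlikely and nothing is read from this. With 1 array left out, between 49.8% (without tori 35-7 control array 1) and 75.8% (without Col-0 water-deficit array 3) of them stayed candidates. Outside the single-array omissions, 167 counts and list medians stayed close to the reported ones (counts within 1.5 times) and 60 moved further. Genes past the adjusted threshold numbered 0 to 2 over the 12 fits that left out 1 array, 2 with array weights and without the 2 arrays of narrowest spread, 1 with the replicate block, and 0 over all probe sets and with arrays centred on their median. For AT3G10040, centring gave -2.32 (adjusted p = 0.0575) over all probe sets and -2.30 (adjusted p = 0.121) over the tested genes, which had been run first. The version kept as planned was settled, and the list alternatives added, after seeing the data. AT3G27220 passed with array weights (adjusted p = 0.032), without the 2 arrays and without tori 35-7 control array 1. With the replicate block, candidates were 147 positive and 101 negative, and the block changed no call of the interaction. With arrays centred on their median, candidates were 171 positive and 63 negative over all probe sets. Centring over the tested genes gave 157 positive and 54 negative.

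Over the single-array omissions, candidates ranged between 69 and 254 positive and between 52 and 151 negative, and their total between 130 (without tori 35-7 water-deficit array 3) and 394 (without Col-0 water-deficit array 2). The types by response ranged between 46 and 92 (tori 35-7 only), 50 and 244 (Col-0 only), 15 and 57 (reversed), 4 and 16 (weaker), 3 and 6 (stronger) and 0 and 1 (neither). The types by genotype difference ranged between 69 and 250 (water deficit only), 43 and 95 (control medium only), 9 and 50 (opposite), 0 and 5 (both, smaller), 2 and 11 (both, larger) and 0 and 3 (neither).

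Array weights gave 139 negative candidates, 19 weaker, 7 stronger and 2 neither by response, and 104 on control medium only, 32 opposite, 5 both but smaller and 11 both but larger by genotype difference. Without the 2 arrays there were 174 negative, 115 in tori 35-7 only, 1 neither, 36 opposite, 7 both but smaller and 11 both but larger. All probe sets gave 229 positive and 185 negative, with 135 in tori 35-7 only, 190 in Col-0 only, 71 reversed and 7 stronger, and 238 under water deficit only, 115 on control medium only, 51 opposite and 4 both but smaller. Centring left 1 in neither by response under both versions and 2 in neither by genotype difference. Quantile normalization gave 9 both but larger and 2 neither, and 8 both but larger over the tested genes. Without low levels 16 were reversed. An unadjusted p below 0.001 left 9 positive and 13 negative. Sorting by adjusted p gave 29 in tori 35-7 only, 36 in Col-0 only, 0 reversed, 5 weaker, 2 stronger and 139 neither, and 32 under water deficit only, 22 on control medium only, 0 opposite, 1 both but smaller, 0 both but larger and 156 neither. Sorting by a size of at least 0.5 gave 4 reversed and 62 neither, and 3 opposite, 1 both but smaller, 2 both but larger and 55 neither.

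Without the 2 arrays, list medians moved to -0.59 (iron deficiency), 0.35 (photosynthesis), -0.0559 (ribosome assembly) and -0.29 (stomatal lineage). Of 105 named genes, 7 list members changed sign, of which 5 had sizes of 0.16 or less on all arrays: AT5G63190 (0.27 on all arrays, -0.126, mean of probe sets), AT1G22730 (0.37 on all arrays, -0.132, without the 2 arrays), AT5G64040 (-0.0419, quantile over tested genes; omissions -0.151 to 0.233), AT1G68670 (-0.115 with weights, -0.0629 and, over tested genes, -0.0838 with quantile, -0.176 without the 2 arrays; omissions -0.172 to 0.21), AT1G12560 (0.0301 with weights, 0.037 and, over tested genes, 0.0523 centred; omissions -0.0804 to 0.0361), AT2G44460 (omissions -0.528 to 0.269) and AT1G62980 (omissions -0.0512 to 0.21). The cause of these changes was not tested. The table has no detection calls, so signal over background is unknown, and 3 arrays a group limit the precision.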
